A study of Mus musculus with 80 samples.

Results

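Cytochrome P450 enzymes are haem monooxygenases that oxidise drugs, steroids, retinoids, sterols and fatty acids. The 96 autosomal protein-coding mouse genes described here carry symbols that begin with Cyp and a number, and they were taken from the 21631 protein-coding genes of chromosomes 1 to 19 and X by symbol alone. Cyp11a1, Cyp17a1 and Cyp19a1, which belong to steroid hormone synthesis, were left aside. The 96 genes fall into 37 subfamilies, named by the number and letter after Cyp, and 8 subfamilies with 3 or more members hold 65 of them. Runs of at least 3 members with no more than 500 kb between neighbours form 7 clusters that hold 68 genes, and the other 28 lie alone or in pairs.

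The series profiled H3K27me3, the histone mark laid down by Polycomb repressive complexes, with CUT&RUN, in which an antibody guides a nuclease to marked chromatin. Fibroblasts were purified with magnetic beads from the myometrium and endometrium of mice, and Kdm6b, which encodes a demethylase of this mark, was the gene deleted. Pgr-Cre Kdm6b cKO females carry floxed Kdm6b alleles and a Cre expressed in cells with the progesterone receptor, and Pdgfra-Cre Kdm6b f/f females carry a Cre expressed in Pdgfra-positive cells such as fibroblasts. Either kind is named cKO below. The control females are Kdm6b f/f, with the floxed alleles and neither Cre. All of these females were mated with B6 males, and the labels give no age.

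For Pgr-Cre cKO and its controls, tissue between implantation sites (IIS) was sampled at GD5.5, then GD8.5 and then GD14.5, GD being the day of gestation, and implantation sites (IS) were sampled at GD14.5 as well as GD18.5, while the Pdgfra-Cre cKO and a control group of its own came from IS at GD14.5. A separate set of B6CBAF1/J females covered naturally mated females (GD5.5 IIS), females mated with a vasectomized male (GD5.5xVAS uterus), uterus of non-pregnant females given progesterone for 3 days (NP P4) and GD0.5 uterus. Each of the 16 groups has 1 deposited peak list that pools its 3 samples, so a list has no replicates of its own, and the number of reads behind it is unknown. The 12 lists of the Kdm6b set form 6 pairs of cKO and control, and these pairs are the only replication. The sources used here do not say whether IIS and IS fibroblasts of GD14.5 came from the same females, and p-values below measure the spread between pairs of lists.

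Values are coverage, the percent of a gene's span plus 2 kb on either side that lies inside merged peaks, and differences are in percentage points. Where a gene has 6 values for a genotype, they run in the order GD5.5 IIS, GD8.5 IIS, GD14.5 IIS, GD14.5 IS, GD18.5 IS and the GD14.5 IS list of the Pdgfra-Cre pair. The 12 Kdm6b lists covered 609 to 740 Mb of the genome. The peaks were lenient, with a median fold over background of 1.116 to 1.146 per list. The 2 control lists from GD14.5 IS were not alike, since the one paired with Pgr-Cre covered 703 Mb and the one paired with Pdgfra-Cre covered 609 Mb. Kdm6b itself had a coverage of 0.93 to 7.1% in the 6 cKO lists and of 0 to 6.75% in the 6 control lists, and peaks of a repressive mark do not check the deletion. Of 8 fibroblast markers, 7 lay at 0 in all 12 lists, and Pdgfra averaged 23.4% in cKO lists and 22.9% in control lists. Coverage summed over 4 endothelial markers was 52.5 to 101 in cKO lists and 32.5 to 59.7 in control lists, none of the 4 lay at 0 throughout, and the part this difference plays in the results below was not tested.

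Polycomb marks are typically broad over genes that a cell type does not use, and CpG-rich promoters are the classical sites at which the mark is set. Many P450 genes are expressed mainly in liver, kidney, gut or lung, and the tandem clusters arose by gene duplication, so that neighbours resemble each other. In the uterus the retinoic acid hydroxylases of the Cyp26 family and the arachidonic acid epoxygenases and hydroxylases of the Cyp2c, Cyp2j, Cyp4a and Cyp4f families are of interest for retinoid and eicosanoid signalling.

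Promoters of 6 P450 genes illustrate the range of CpG content among them. RefSeq promoter windows (build GRCm38.p6, 250 bases before to 50 after the start, written 5′ to 3′ on the strand of the gene) are shown with each CpG in capitals. Cyp26a1 (chr19:37697558-37697857, plus strand) lay inside peaks throughout, Cyp51 (chr5:4104648-4104947, minus strand) almost never did, and Cyp46a1 (chr12:108334066-108334365, plus strand) and Cyp2f2 (chr7:27119705-27120004, plus strand) were the genes whose coverage over the whole span rose in cKO lists. Cyp2c55 (chr19:39006769-39007068, plus strand) and Cyp3a57 (chr5:145345019-145345318, plus strand) were among those that fell over the whole span. Coverage was low around most of these starts. In the 2 kb either side of the start, Cyp46a1 averaged 8.11% in cKO lists and 6.87% in control lists, Cyp2f2 3.90% and 3.49%, Cyp51 2.13% and 1.43%, and Cyp2c55 0.52% and 17.6%, while Cyp26a1 was at 100% in both.
Cyp26a1: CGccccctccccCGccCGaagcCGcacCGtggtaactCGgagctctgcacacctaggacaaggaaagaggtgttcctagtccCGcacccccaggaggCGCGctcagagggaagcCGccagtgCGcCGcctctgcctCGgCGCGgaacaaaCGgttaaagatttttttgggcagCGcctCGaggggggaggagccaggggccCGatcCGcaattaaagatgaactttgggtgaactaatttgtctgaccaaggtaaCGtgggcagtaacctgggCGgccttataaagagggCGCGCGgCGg
Cyp51: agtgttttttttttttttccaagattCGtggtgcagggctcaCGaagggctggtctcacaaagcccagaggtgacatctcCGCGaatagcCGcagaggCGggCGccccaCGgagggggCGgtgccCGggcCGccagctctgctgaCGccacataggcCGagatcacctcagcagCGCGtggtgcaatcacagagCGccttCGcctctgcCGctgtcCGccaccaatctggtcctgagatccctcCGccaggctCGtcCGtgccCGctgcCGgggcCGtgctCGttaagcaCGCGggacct
Cyp46a1: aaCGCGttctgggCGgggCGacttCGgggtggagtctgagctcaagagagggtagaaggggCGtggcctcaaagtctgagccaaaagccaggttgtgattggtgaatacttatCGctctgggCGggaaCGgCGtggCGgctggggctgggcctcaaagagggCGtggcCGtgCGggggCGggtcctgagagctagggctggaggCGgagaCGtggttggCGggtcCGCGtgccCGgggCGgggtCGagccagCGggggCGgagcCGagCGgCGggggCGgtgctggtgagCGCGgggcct
Cyp2c55: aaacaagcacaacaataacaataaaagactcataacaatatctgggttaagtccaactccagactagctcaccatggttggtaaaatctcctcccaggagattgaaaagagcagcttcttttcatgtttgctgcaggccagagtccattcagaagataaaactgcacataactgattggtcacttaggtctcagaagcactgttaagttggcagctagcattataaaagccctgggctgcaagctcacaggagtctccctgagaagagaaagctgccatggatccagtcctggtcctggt
Cyp3a57: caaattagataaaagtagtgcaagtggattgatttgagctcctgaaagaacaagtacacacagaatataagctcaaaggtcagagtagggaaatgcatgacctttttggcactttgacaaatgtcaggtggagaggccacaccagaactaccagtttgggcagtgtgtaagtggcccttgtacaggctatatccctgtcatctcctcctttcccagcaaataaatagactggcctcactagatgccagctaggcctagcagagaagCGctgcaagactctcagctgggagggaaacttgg
Cyp2f2: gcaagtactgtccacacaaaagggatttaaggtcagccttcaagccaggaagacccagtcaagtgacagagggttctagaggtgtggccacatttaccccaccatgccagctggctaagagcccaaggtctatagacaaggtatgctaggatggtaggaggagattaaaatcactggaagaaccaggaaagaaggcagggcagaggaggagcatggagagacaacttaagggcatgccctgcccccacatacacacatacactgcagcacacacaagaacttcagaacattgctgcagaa

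The Cyp26a1, Cyp51 and Cyp46a1 windows held 26, 28 and 31 CpG, while those of Cyp2c55 and Cyp2f2 held none and that of Cyp3a57 held 1. Of the 96 genes, 75 had a RefSeq window, and 10 of these, or 13.3%, held at least 10 CpG in the window richest in CpG, against 45.8% of 27025 genes counted the same way. The median was 3 CpG for the P450 genes and 8 for all genes. The 10 CpG-rich windows belong to Cyp1b1, Cyp20a1, Cyp26a1, Cyp27a1, Cyp2r1, Cyp2s1, Cyp46a1, Cyp4f39, Cyp4v3 and Cyp51. None is in the Cyp2c, Cyp2d, Cyp2j, Cyp3a or Cyp4a subfamilies, as far as their members had a window. Members without one were Cyp2c23, Cyp2c54, Cyp2d12, Cyp2d22, Cyp2d34, Cyp4a10, Cyp4a12a, Cyp4a12b, Cyp4a14 and Cyp4a31. The 10 CpG-rich genes spanned the whole range of coverage, with 3 at 0 and 2 at 90% or more in all 12 Kdm6b lists. The 65 CpG-poor genes did so too, with 4 at 0 and 6 at 90% or more, and they averaged 33.7% in cKO lists and 40.4% in control lists, while the 10 CpG-rich ones averaged 35.7% and 33.9%.

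**Figure D1:**
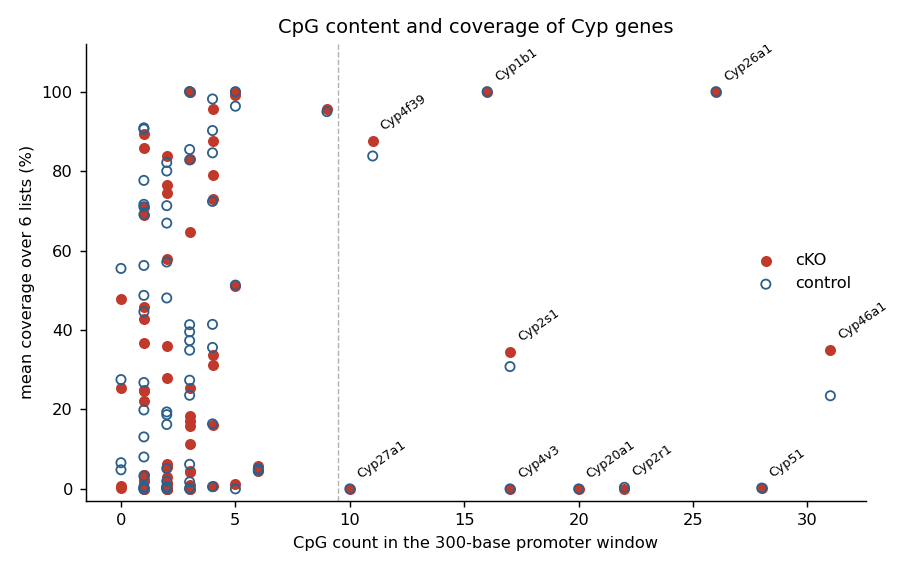
Each of 75 P450 genes is plotted by the CpG count of its 300-base promoter window (x axis) and its mean coverage in percent over the 6 cKO lists (filled red) and the 6 control lists (open blue). The 10 named genes right of the dashed line hold at least 10 CpG, and genes at 0% and at 100% occur on both sides of it.

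A group of 9 genes was covered over 90% or more of the window in all 12 Kdm6b lists. They were Cyp26a1, Cyp26b1 and Cyp26c1, which hydroxylate and clear retinoic acid, Cyp24a1, which inactivates vitamin D, Cyp1a1, Cyp1a2 and Cyp1b1, targets of the aryl hydrocarbon receptor, Cyp8b1, the sterol hydroxylase that forms cholic acid, and Cyp4f14, a fatty acid hydroxylase. Cyp26a1 (chr19:37697738-37701536) and its neighbour Cyp26c1 stood at 100% in each of the 16 lists, and so did Cyp1b1, Cyp1a2 and Cyp4f14. Cyp26b1 had 94.6, 93.5, 97.3, 93.1, 95.9 and 99.7% in the cKO lists, against 95.4, 93.00, 96.8, 92.3, 96.8 and 95.6% in the control lists. Its difference of 0.705 points was not past the test, and its groups overlapped. Among these 9 genes 4 could be tested and none rose or fell, while the 5 at 100% throughout have no spread to test.

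Only 7 of the 96 genes overlapped a strong peak, meaning one whose −log10 q reached 2, among the 12 Kdm6b lists. Cyp27b1 (chr10:127048246-127054884), which activates vitamin D in the kidney, overlapped one in 8 lists, with a highest −log10 q of 5.11. Cyp4f14 and Cyp4f13 did so in 5 lists each, Cyp26a1, Cyp26c1 and Cyp2w1 in 2 each, and Cyp1b1 in 1. Neighbours such as Cyp26a1 and Cyp26c1 can share a peak. None of the 12 genes that passed the test below held such a peak, so their values rest on weak, broad peaks.

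At the other end, 10 genes lay at 0 in all 12 Kdm6b lists and 20 more averaged under 5%. Those at 0 were Cyp27a1, the mitochondrial sterol hydroxylase, Cyp20a1, an orphan P450, Cyp39a1, an oxysterol hydroxylase, Cyp4v3, the mouse counterpart of the human fatty acid hydroxylase CYP4V2, and 6 genes of the clusters, namely Cyp2a4, Cyp2a22, Cyp2d22, Cyp3a25, Cyp3a41a and Cyp4f17. Cyp51, lanosterol demethylase of cholesterol synthesis, reached at most 1.83%, Cyp2r1, a vitamin D hydroxylase, at most 2.35%, and Cyp7b1, an oxysterol hydroxylase, at most 1.28% in any list of this set. Cyp21a1, the steroid hydroxylase of the adrenal, was at 0 in all 6 cKO lists and in 3 control lists, and had 9.06, 18.52 and 16.2% in the control lists of GD14.5 IIS, GD14.5 IS and GD18.5 IS. It averaged too little to be tested. The remaining 57 genes lay in between, and 45 of these are in clusters. Outside the clusters Cyp7a1, which starts bile acid synthesis in liver, averaged 61.0% in cKO lists and 54.7% in control lists, Cyp2e1, which oxidises ethanol, 87.5% and 90.2%, and Cyp2u1, a fatty acid hydroxylase, 45.3% and 55.4%. Cyp2s1, at the edge of a cluster, averaged 34.4% and 30.8%, and none of these 4 passed the test.

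Near-identical copies sat among the genes with little coverage. Cyp2a4, a steroid hydroxylase of liver and kidney, and Cyp2a5, the coumarin hydroxylase, have promoter windows that align over 294 identical bases (97.7% identity), yet Cyp2a4 lay at 0 in all 16 lists and Cyp2a5 averaged 74.4% in cKO lists and 80.02% in control lists. Their windows are given with each base that has no identical partner in the alignment in capitals, where the first base of one and the last of the other only mark an offset of 1 base (Cyp2a4 chr7:26306942-26307241 and Cyp2a5 chr7:26835089-26835388, both plus strand).
Cyp2a4: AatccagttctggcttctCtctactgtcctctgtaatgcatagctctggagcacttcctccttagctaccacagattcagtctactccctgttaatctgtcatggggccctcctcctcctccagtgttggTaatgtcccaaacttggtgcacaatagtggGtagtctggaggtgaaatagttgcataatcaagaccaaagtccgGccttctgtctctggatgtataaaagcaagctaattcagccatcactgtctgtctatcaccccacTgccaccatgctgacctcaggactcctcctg
Cyp2a5: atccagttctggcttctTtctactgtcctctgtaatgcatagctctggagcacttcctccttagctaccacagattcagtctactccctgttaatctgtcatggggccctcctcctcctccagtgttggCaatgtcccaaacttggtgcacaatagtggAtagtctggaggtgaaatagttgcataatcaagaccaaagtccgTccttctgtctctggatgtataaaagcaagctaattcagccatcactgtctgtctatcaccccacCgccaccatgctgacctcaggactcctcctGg

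Further pairs with promoter identity above 96% were Cyp2b13 with Cyp2b9 (99.3%), Cyp3a41a with Cyp3a41b (97.0%) and Cyp3a25 with Cyp3a59 (96.3%). All 6 of these genes averaged 5.13% or less in both groups of lists. The sources used here do not say how the authors treated reads that match more than 1 copy, so low coverage of a near-identical copy is uncertain, and the part played by such reads was not tested.

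The main question was how Kdm6b deletion altered the mark over the P450 genes. Over the 96 genes coverage averaged 33.2% in cKO lists and 39.3% in control lists, a mean difference of −6.12 points (SD over the 6 pairs 4.03) and a median difference of −0.94, while all 20665 autosomal genes had a mean difference of −0.03 and a median of 0. The clusters carried most of the difference, with a mean of −7.92 points over 68 genes, against −1.75 points over the 28 genes outside them. By pair, the mean over the 96 genes was −4.42 at GD5.5 IIS, −5.52 at GD8.5 IIS, −11.3 at GD14.5 IIS, −5.96 at GD14.5 IS and −9.67 at GD18.5 IS with Pgr-Cre, and 0.117 at GD14.5 IS with Pdgfra-Cre. All autosomal genes had means of 0.11, 0.05, −1.84, 0.61 and −1.41 in the 5 Pgr-Cre pairs in the same order and of 2.30 in the Pdgfra-Cre pair. The Pgr-Cre pairs thus all lay below 0 for the P450 genes and the Pdgfra-Cre pair did not, a contrast between Cre lines that rests on 1 pair, on unlike control lists and on no test.

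Genes covered on average over 5% or more of their window were fitted with limma on the 6 paired differences, across the whole genome, and a rise or fall means a Benjamini-Hochberg adjusted p under 0.05 over all 9844 genes fitted. Of all genes 8.68% rose and 8.44% fell, and of the autosomal genes in the same fit 9.45% rose and 6.7% fell. Of the 96 P450 genes 66 had a mean of at least 5% and 61 could be fitted. Among these 61, 2 rose and 10 fell. When each list was brought to the same covered length, where 3.31% of all genes rose and 5.03% fell, none of 49 fitted P450 genes rose (1 was higher at an unadjusted p under 0.05) and 8 fell, 6 of them among the 10. With flanks of 5 kb, where 9.04% of all genes rose and 8.61% fell, 3 P450 genes rose and 13 fell. The number that fell depended on single pairs. It was 4 without the Pgr-Cre GD8.5 IIS pair and 5 without any one of the GD14.5 IIS, GD14.5 IS or GD18.5 IS Pgr-Cre pairs. It was 7 without the GD5.5 IIS pair and 15 without the Pdgfra-Cre pair, and the number that rose was 2 each time. The share of all genes called was not counted in these fits, so the changes in number are not a result about P450 genes alone. In windows of 2 kb either side of the transcription start, where 1.14% of all genes rose and 1.26% fell, 1 of 42 P450 genes fell and none rose (2 were higher at an unadjusted p under 0.05). The median difference of the 61 fitted genes was −7.63 points, against 0.49 for the fitted autosomal genes. Of the 61, 46 were negative, a share not counted for the fitted autosomal genes. Some of the 61 entered the fit through their control lists, such as Cyp4a12a with 3.10% in cKO lists and 17.2% in control lists. Without the filter, 59 of the 96 genes averaged lower in cKO lists and 22 higher. Of all 20665 autosomal genes 5918 averaged lower and 7519 higher.

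Among the fatty acid and drug hydroxylases of the Cyp2c family, Cyp2c55, Cyp2c65, Cyp2c37 and Cyp2c54 fell. Cyp2c55 (chr19:39006940-39042690), an enzyme that hydroxylates arachidonic acid in the mouse colon, had 21.6, 25.2, 23.1, 26.9, 21.7 and 33.2% in the cKO lists, against 54.5, 55.2, 58.00, 57.7, 53.9 and 53.6% in the control lists. All cKO lists lay below all control lists, and the control lists were within 5 points of each other. The mean difference was −30.2 points (SE 2.13, adjusted p = 0.00163, limma, n = 6 pairs), the smallest p of any P450 gene. It kept its call when any single pair was left out, but not at equal covered length, where the difference was −22.3 points and the adjusted p 0.109, nor around its start, where it was −17.1 with an adjusted p of 0.256.

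Cyp2c65 (chr19:39061006-39093948), an intestinal member, had 31.5, 13.5, 44.3, 57.03, 35.03 and 35.1% in the cKO lists, against 50.2, 67.7, 72.5, 77.1, 87.1 and 46.9% in the control lists. The groups overlapped, because the cKO list of GD14.5 IS lay above the control lists of GD5.5 IIS and of the Pdgfra-Cre pair, but every pair was lower in cKO. Its mean difference was −30.8 points (SE 6.44, adjusted p = 0.0237, limma, n = 6 pairs), a call that held in 3 of the 6 fits that left out a pair and was lost without the GD8.5 IIS, the GD14.5 IIS or the GD18.5 IS pair. Cyp2c37 (chr19:39992424-40012243), a liver enzyme that oxidises arachidonic acid, had 26.8, 30.4, 53.9, 46.6, 44.7 and 53.9% in the cKO lists, against 58.7, 70.9, 70.5, 80.7, 77.5 and 56.1% in the control lists. These groups did not overlap, and the mean difference was −26.4 points (SE 5.13, adjusted p = 0.0198, limma, n = 6 pairs), a call that held in 2 of the 6 fits, without the GD14.5 IIS pair or the Pdgfra-Cre pair, with an adjusted p of up to 0.0565 in the other 4 (limma). Cyp2c54, which lies beside it, had 25.5, 19.4, 53.4, 63.00, 59.1 and 56.8% in the cKO lists, against 68.8, 65.1, 80.3, 77.4, 73.7 and 60.3% in the control lists. Its cKO lists spread from 19.4 to 63.0%, and the mean difference was −24.7 points (SE 6.08, adjusted p = 0.0377, limma, n = 6 pairs), a call that held in 1 of the 6 fits, the one without the Pdgfra-Cre pair, and was also lost without a filter on low coverage (adjusted p = 0.0675, limma). Cyp2c70, the muricholic acid enzyme of mouse liver and the member of the family with the highest coverage, averaged 79.1% in cKO lists and 84.6% in control lists and did not pass the test (adjusted p = 0.295, limma).

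The Cyp2j genes encode epoxygenases of arachidonic acid, and 3 of the 6 fitted members fell. Cyp2j8 (chr4:96443950-96507397) had 5.52, 2.04, 2.45, 2.45, 5.08 and 2.87% in the cKO lists, against 20.2, 27.3, 24.8, 17.7, 18.6 and 10.7% in the control lists. The cKO lists were all under 6% and the control lists all above 10%. The mean difference was −16.5 points (SE 2.51, adjusted p = 0.00996, limma, n = 6 pairs), a call kept whichever pair was left out. Its cKO lists averaged 3.40%, under the 5% limit, so the gene entered the fit through its control lists, which averaged 19.9%. Without a filter on low coverage its adjusted p was 0.0176 (limma). At equal covered length and around its start it could not be fitted. Cyp2j11 had 15.8, 14.8, 17.1, 16.2, 14.6 and 23.4% in the cKO lists, against 24.5, 35.8, 56.5, 48.4, 57.00 and 25.97% in the control lists. Its groups were separated by about 1 point, between the Pdgfra-Cre cKO list and the control list of GD5.5 IIS, and the mean difference was −24.4 points (SE 5.87, adjusted p = 0.0355, limma, n = 6 pairs). At equal covered length the Cyp2j11 difference was −12.2 points (adjusted p = 0.0972, limma), and the call was also lost without a filter on low coverage (adjusted p = 0.0648, limma) and in 4 of the 6 fits that left out a pair, each of the Pgr-Cre pairs but GD5.5 IIS. Cyp2j5, the epoxygenase of kidney tubules and the member with the highest mean over the 12 lists, had 10.00, 33.6, 27.04, 17.1, 35.3 and 44.2% in the cKO lists, against 40.02, 43.7, 46.1, 51.6, 54.99 and 52.01% in the control lists. Its mean difference was −20.2 points (SE 3.89, adjusted p = 0.0195, limma, n = 6 pairs), and its groups overlapped through the Pdgfra-Cre cKO list. The call held in 4 of the 6 fits that left out a pair, and without the GD14.5 IIS or the GD18.5 IS pair the adjusted p was 0.0507 and 0.0502 (limma).

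The other 3 genes that fell belong to 3 different families. Cyp4a30b (chr4:115452491-115471418), of the fatty acid hydroxylases, had 67.6, 68.9, 61.2, 56.7, 67.4 and 66.9% in the cKO lists, against 91.1, 91.7, 97.8, 82.4, 77.5 and 72.00% in the control lists. The groups did not overlap, and the mean difference was −20.6 points (SE 4.16, adjusted p = 0.0216, limma, n = 6 pairs). At equal covered length it was −28.1 points with an adjusted p of 0.0634 (limma), and the call was lost without the GD5.5 IIS, the GD8.5 IIS or the Pgr-Cre GD14.5 IS pair. Cyp3a57 (chr5:145345149-145390926), the first gene of the drug-metabolising Cyp3a cluster, had 13.9, 19.9, 26.8, 20.5, 34.1 and 33.4% in the cKO lists, against 33.2, 57.2, 71.7, 58.9, 75.9 and 40.5% in the control lists. The groups touched, with 2 cKO lists just above the lowest control list, and the mean difference was −31.5 points (SE 5.36, adjusted p = 0.0137, limma, n = 6 pairs), a call kept whichever pair was left out. Around its start, the CpG-poor window shown above, coverage averaged 15.0% in cKO lists and 76.8% in control lists, a difference of −61.8 points with an adjusted p of 0.0224 (limma), and this was the P450 gene that passed the test there. Cyp11b2 (chr15:74850618-74856231), aldosterone synthase of the adrenal, had 62.9, 36.3, 61.8, 71.8, 53.98 and 51.2% in the cKO lists, against 65.4, 85.8, 100, 94.01, 88.4 and 74.8% in the control lists. Its groups overlapped and its mean difference was −28.4 points (SE 5.79, adjusted p = 0.0224, limma, n = 6 pairs). The call held in 2 of the 6 fits that left out a pair, without GD5.5 IIS or without the Pdgfra-Cre pair, and at equal covered length the difference was −62.0 points, with 18.7% in cKO lists and 80.7% in control lists (adjusted p = 0.0256, limma). Its neighbour Cyp11b1, the hydroxylase of the last step of glucocorticoid synthesis, averaged 52.3% in cKO lists and 71.6% in control lists and did not pass the test (adjusted p = 0.153, limma).

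Cyp2f2 and Cyp46a1 rose. Cyp2f2 (chr7:27119955-27133660), the naphthalene-activating enzyme of mouse lung club cells, had 36.6, 28.6, 47.1, 68.9, 41.5 and 64.4% in the cKO lists, against 22.8, 17.9, 25.4, 36.05, 27.9 and 35.1% in the control lists. Every pair was higher in cKO although the groups overlapped, and the mean difference was 20.3 points (SE 3.42, adjusted p = 0.0133, limma, n = 6 pairs). Cyp46a1 (chr12:108334268-108362234), the cholesterol hydroxylase of brain, had 31.3, 33.6, 25.3, 44.4, 40.5 and 35.2% in the cKO lists, against 19.5, 17.2, 17.9, 30.3, 30.2 and 25.6% in the control lists. All 6 pairs were again higher in cKO, by 11.6 points on average (SE 1.64, adjusted p = 0.00841, limma, n = 6 pairs). Neither rise held at equal covered length, where the differences were 17.7 points for Cyp2f2 (adjusted p = 0.237, limma) and 2.68 points for Cyp46a1 (adjusted p = 0.346, limma). Both held whichever pair was left out, and that of Cyp2f2 was lost in the unpaired fit (adjusted p = 0.0593, limma). Of the 12 genes that passed, 5 had cKO and control lists that did not overlap, all of them falls. These 12 were called on the same lists, which makes separated lists likely, so the count is only a description. Among all fitted genes, called or not, 3.19% had every cKO list below every control list and 3.95% every one above. Those shares are not a like comparison for the 12 called genes.

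**Figure D2:**
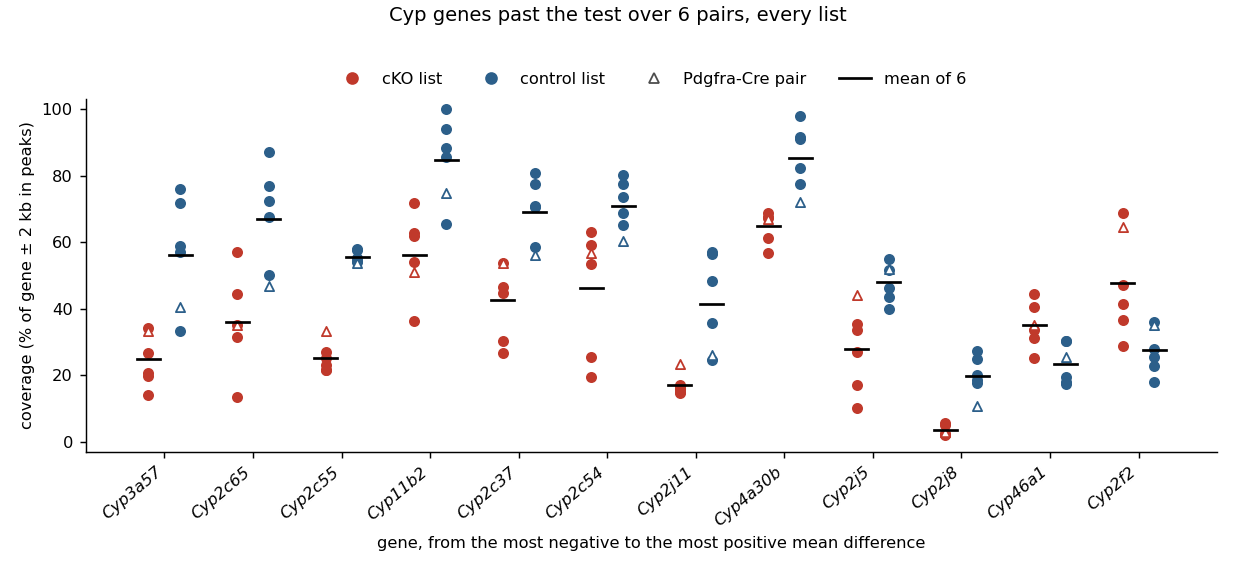
Coverage in percent (y axis) of the 12 P450 genes past the test in each of the 6 cKO lists (red, left of each pair of columns) and 6 control lists (blue, right), with black bars at the means and open triangles for the Pdgfra-Cre pair. Points of Cyp2c55, Cyp2c37, Cyp2j8, Cyp2j11 and Cyp4a30b do not overlap between the groups, and the cKO points of Cyp46a1 and Cyp2f2 average above their control points.

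The subfamilies differed in how far cKO lists lay below control lists. Cyp2c averaged 23.7% in cKO lists and 38.4% in control lists (difference −14.7 points, SD over pairs 8.20), Cyp4a 19.7% and 31.6% (−11.9, SD 6.83), Cyp2d 17.4% and 29.2% (−11.8, SD 15.7, and −6.20 without the GD14.5 IIS pair) and Cyp2j 19.1% and 29.6% (−10.5, SD 4.97). Cyp2b averaged 32.3% in cKO lists and 36.95% in control lists, Cyp2a 27.8% and 32.2% (−4.40, and −2.47 without the Pgr-Cre GD14.5 IS pair), and Cyp3a 12.7% and 17.02%. The Cyp4f subfamily, which holds hydroxylases of leukotrienes and long-chain fatty acids, had the highest level of these 8 and the smallest difference, with 54.7% in cKO lists and 53.8% in control lists (0.93 points, SD 1.09). No test was made between subfamilies, because members of a cluster share peaks and flanks and are not replicates.

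Every pair was lower in cKO for Cyp2c, Cyp2j, Cyp3a and Cyp4a, 5 of the 6 were for Cyp2a, Cyp2b and Cyp2d, and 2 were for Cyp4f. In the Pdgfra-Cre pair the differences were small for Cyp2c (−3.56 points), Cyp2j (−2.91) and Cyp4a (−1.35), and Cyp2d was higher in cKO (5.27). Among members, 14 of the 15 Cyp2c genes, all 7 Cyp2j genes, 7 of the 8 Cyp4a genes and 6 of the 8 Cyp2d genes averaged lower in cKO lists, against 1 of the 9 Cyp4f genes. The Cyp2c gene that went the other way was Cyp2c23, which lies outside the cluster and averaged 10.7% in cKO lists and 5.64% in control lists without passing the test (adjusted p = 0.167, limma).

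**Figure D3:**
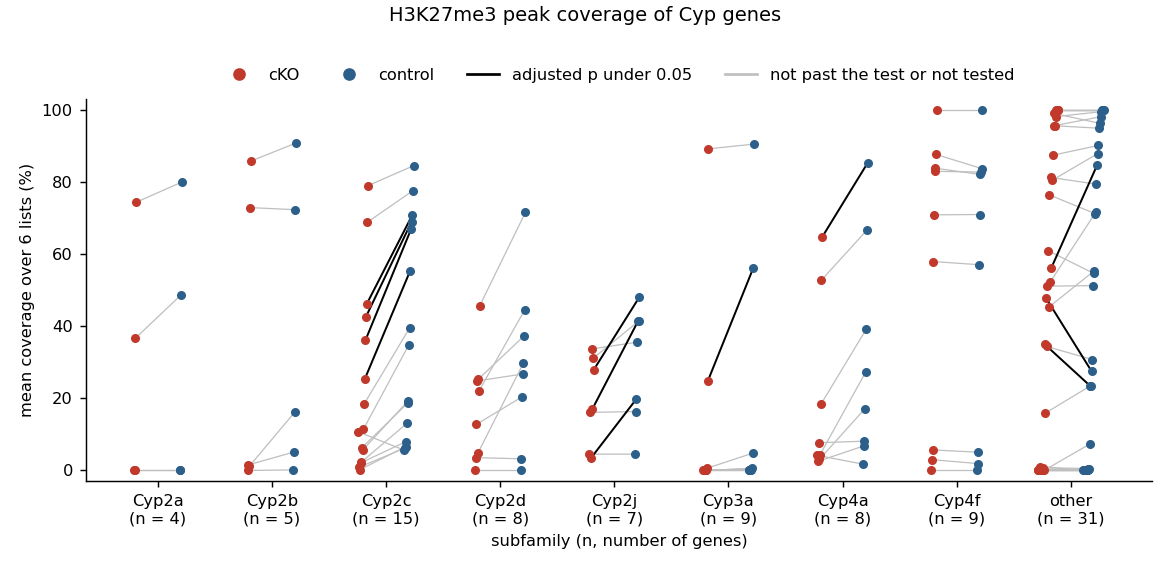
Mean coverage in percent over 6 lists (y axis) of each P450 gene, cKO in red on the left and control in blue on the right of each subfamily, joined by a black line where the gene passed the test and by a grey line otherwise. Lines of Cyp2c, Cyp2j, Cyp4a and Cyp2d genes mostly climb toward control, while those of Cyp4f genes are nearly flat at high or low levels.

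Along the Cyp2c and Cyp2d clusters coverage was lower in cKO lists in every bin of 50 kb, while the other clusters held bins of both signs or bins with no difference. The Cyp2c cluster (chr19:39004940-40189286, 14 genes) had 15.8% of its length inside peaks in cKO lists and 28.8% in control lists (difference −12.9 points, SD over pairs 9.00), and each of the 24 bins of 50 kb along it averaged lower in cKO, by 1.24 to 27.3 points. The 500 kb on its left had 3.17% in cKO lists and 1.81% in control lists and the 500 kb on its right 11.9% and 8.86%. The Cyp2d cluster (chr15:82368527-82796452, 8 genes) had 46.4% in cKO lists and 58.1% in control lists, with all 9 bins lower in cKO, while its sides differed by 0.83 and 2.64 points upward. The Cyp4a cluster (chr4:115104323-115649721, 10 genes with Cyp4x1 and Cyp4b1) had 20.5% in cKO lists and 29.2% in control lists, with 9 of 11 bins lower and 2 higher by up to 2.05 points. No test was made on intervals, and neighbouring bins share peaks.

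The Cyp2j cluster (chr4:96040660-96666171, 7 genes) formed a step against its surroundings. Inside it 23.1% lay in peaks in cKO lists and 36.8% in control lists, a difference of −13.7 points (SD over pairs 6.15) with the same sign in all 6 pairs, Pdgfra-Cre included. In the 500 kb to its left coverage was 29.1% in cKO lists and 15.5% in control lists, and in the 500 kb to its right 36.6% and 18.1%, so that differences of 13.6 and 18.6 points with the opposite sign flanked it, again in all 6 pairs. The left side was not uniform, since 2 of its 10 bins averaged lower in cKO, and these were the 2 next to the cluster. The nearer of them averaged 48.4% in cKO lists and 62.4% in control lists. In 7 of the 10 bins on the left and 5 of the 10 on the right every cKO list lay above every control list, while in 5 of the 13 bins inside every cKO list lay below. The left side holds Fggy and Hook1 and the right side Gm12695. Such opposite flanks were not seen on this scale at the other 6 clusters, whose 500 kb sides differed by −2.87 to 3.54 points.

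The Cyp4f, Cyp3a and Cyp2a-2b-2f clusters differed less over their length. The Cyp4f cluster (chr17:32450697-32949415, 8 genes) had 50.9% in cKO lists and 52.1% in control lists (−1.21 points, SD 1.84, and −1.90 without the Pdgfra-Cre pair), with 7 of its 10 bins lower and 3 higher in cKO. The Cyp3a cluster (chr5:145343149-146116978, 8 genes) had 1.87% in cKO lists and 5.28% in control lists, with a largest bin difference of −31.3 points, and apart from Cyp3a57 at one end its genes were nearly free of peaks. Its 7 other genes were at most 19.03% covered in any of the 12 lists, the highest being Cyp3a59 in the control list of GD18.5 IS. Cyp3a13, which lies outside the cluster and is the family member with the highest coverage, averaged 89.3% in cKO lists and 90.6% in control lists. The Cyp2a-2b-2f cluster (chr7:25800469-27160564, 13 genes with Cyp2s1, Cyp2g1 and Cyp2t4) had 16.8% in cKO lists and 20.9% in control lists (−4.07 points, SD 2.31), with 22 of 27 bins lower and 4 higher by up to 13.1 points, and it holds Cyp2f2, which rose. Cyp2b19, an epoxygenase of mouse keratinocytes, had the highest coverage of its family, with 85.8% in cKO lists and 90.9% in control lists (adjusted p = 0.386, limma).

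**Figure D4:**
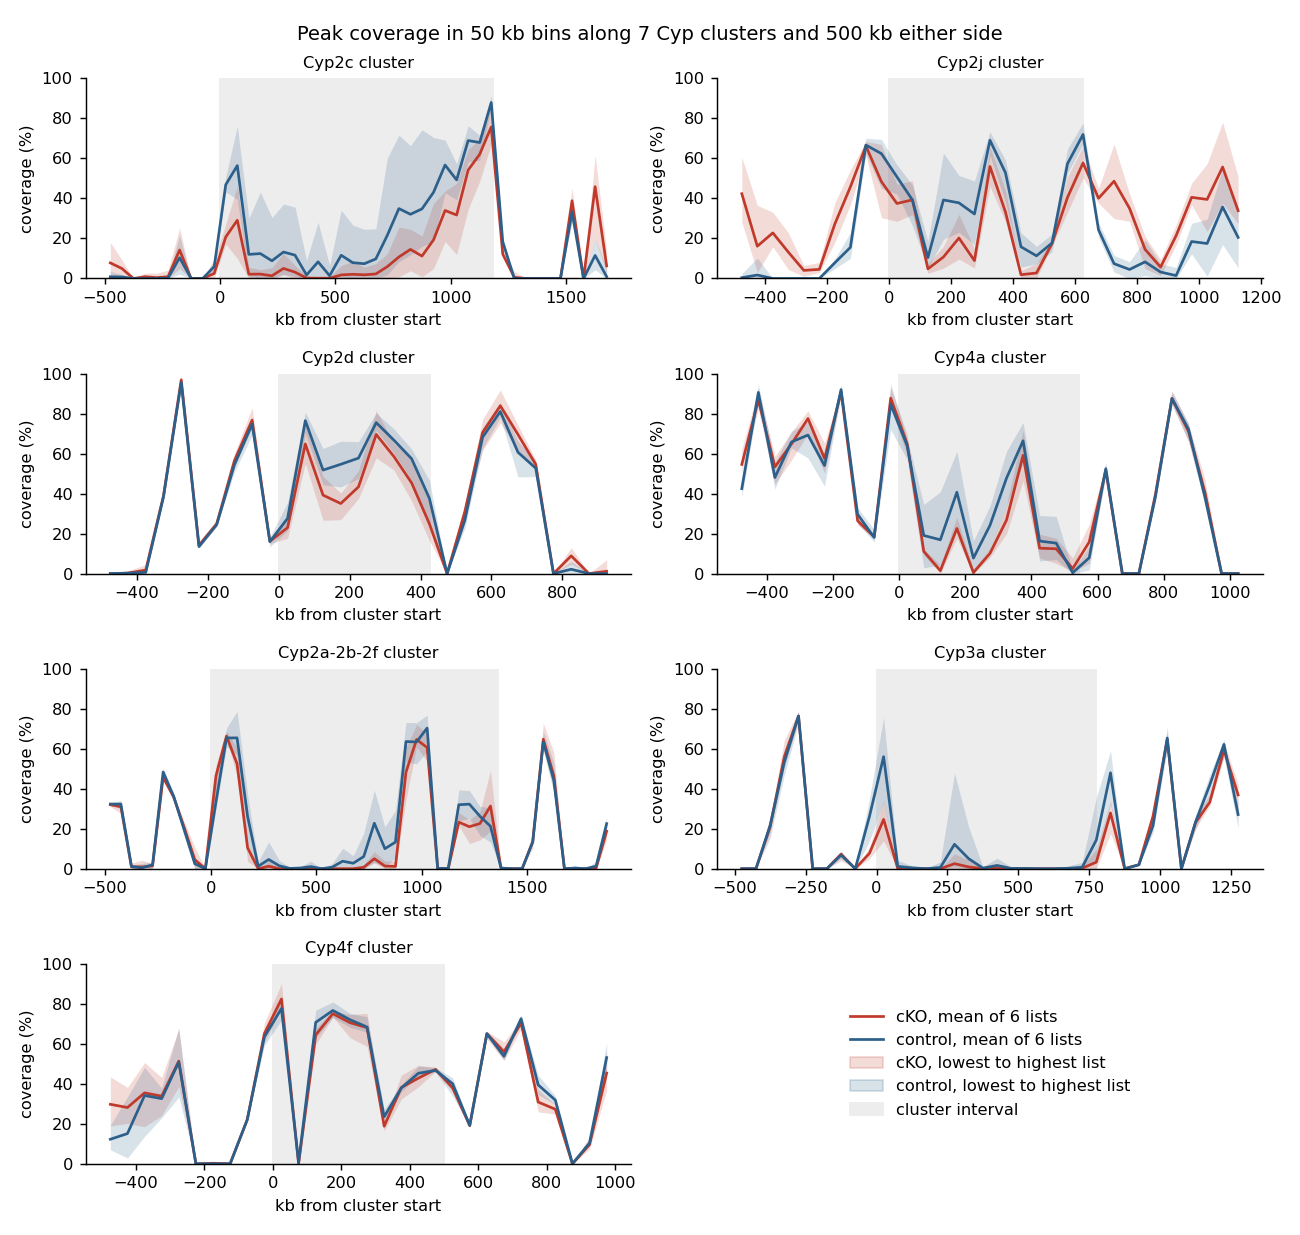
Coverage in percent of 50 kb bins (y axis) against the distance in kb from the start of each of 7 P450 clusters (x axis), as the mean of the 6 cKO lists (red) and of the 6 control lists (blue) with bands from the lowest to the highest list; the grey block is the cluster. The red line runs below the blue one inside the Cyp2c and Cyp2d clusters and in most bins inside the Cyp4a and Cyp2j clusters. It runs above the blue one in most bins on either side of the Cyp2j cluster, though not in those next to its left edge, and close to it along the Cyp4f cluster.

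Later control lists were higher than earlier ones over the P450 genes, with 1 list per stage and no test. Over the 96 genes control coverage averaged 35.95% at GD5.5 IIS, 36.7% at GD8.5 IIS and 43.5% at GD14.5 IIS, and at implantation sites 41.4% at GD14.5 and 43.9% at GD18.5, while the Pgr-Cre cKO lists of the same stages and sites had 31.5, 31.2, 32.2, 35.4 and 34.2%. All autosomal genes averaged 22.04, 21.8, 23.9, 23.3 and 24.1% in those 5 control lists. The Cyp2c subfamily had 29.1, 31.1 and 42.4% in the control lists of IIS and 44.3 and 54.7% in those of IS, against 17.6, 15.5 and 26.9% and 31.1 and 25.96% in the Pgr-Cre cKO lists. The control list of GD14.5 IS that belongs to the Pdgfra-Cre pair had 29.02% for Cyp2c and 34.2% over all 96 genes, as low as the control lists of the earliest stages, so the size of any stage difference cannot be told apart from differences between lists of 1 stage. Set against that list, the Pgr-Cre pair's control list of the same stage and site was higher by 7.19 points over the 96 genes and by 2.48 over all autosomal genes.

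**Figure D5:**
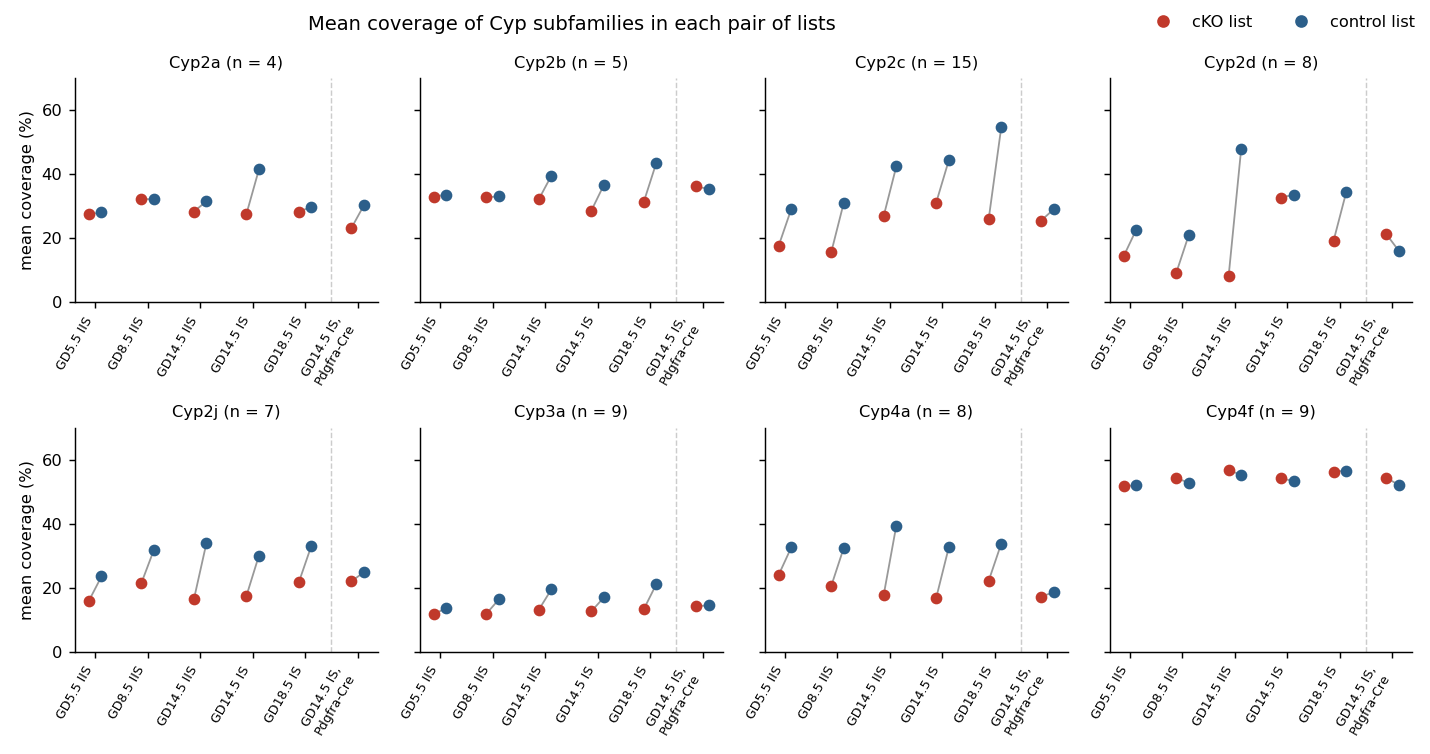
Mean coverage in percent (y axis) of 8 P450 subfamilies in the cKO list (red, left) and control list (blue, right) of each pair, with the 5 Pgr-Cre pairs by stage and site left of the dashed line and the Pdgfra-Cre pair right of it. Cyp2c control points reach 54.7% at GD18.5 IS, where the cKO point is at 25.96%, Cyp2d points are furthest apart at GD14.5 IIS, and Cyp4f points lie between 51.7 and 56.7% throughout.

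Single comparisons of 1 list with 1 list were read with a size rule of 50 points, which gave 13 cases over 18 comparisons and, at equal covered length, 40. At GD14.5 IIS the cKO list was lower by at least 50 points for 4 P450 genes, against 1.05% of all autosomal genes, and these were Cyp2d40, with 6.82% in cKO and 90.9% in control, Cyp2d12, with 0% and 63.6%, Cyp2d26, with 0.06% and 54.1%, and Cyp11b1, with 35% and 88.4%. The Cyp2d genes, a family of drug hydroxylases, averaged 8.01% in this cKO list and 48.0% in its control list, yet 32.7% and 33.6% at implantation sites of the same day. In Pgr-Cre cKO lists Cyp2d40 was the gene above the size rule between sites at GD14.5, with 76.4% at IS and 6.82% at IIS, where 0.106% of all genes were higher by as much. At equal covered length that difference was 40.6 points. None of the 6 fitted Cyp2d genes passed the test over the 6 pairs, and Cyp2d40, the member with the highest coverage, had an adjusted p of 0.16 (limma), but at equal covered length it had 9.52% in cKO lists and 55.7% in control lists (adjusted p = 0.0476, limma).

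At GD18.5 IS 4 Cyp2c genes were lower by at least 50 points in the cKO list, against 0.707% of all genes. Cyp2c40 had 9.27% in cKO and 73.4% in control, Cyp2c65 35.03% and 87.1%, Cyp2c69 27.7% and 79.3%, and Cyp2c29 6.19% and 57.1%. At GD8.5 IIS Cyp2c65 had 13.5% in cKO and 67.7% in control, where 0.61% of all genes were lower by as much, and this gap was 26.7 points at equal covered length. That of Cyp2c40 at GD18.5 IS was 40.7 points there.

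In the B6CBAF1/J set, kept apart because its peaks were called with another minimum gap, coverage over the 96 genes averaged 36.4% at GD5.5 IIS, 36.6% at GD5.5xVAS, 32.3% in NP P4 uterus and 37% at GD0.5. Cyp2a12, a steroid hydroxylase of liver, had 30.97% at GD5.5 IIS, 70.3% at GD5.5xVAS, 34.6% in NP P4 uterus and 88.3% at GD0.5, and was thus lower by 57.3 and 53.6 points at GD5.5 IIS and in NP P4 uterus than at GD0.5, where 0.252% and 0.682% of all genes were lower by as much. Cyp2u1 had 87.01% at GD5.5 IIS and 17.4% at GD0.5, where 0.319% of all genes were higher by 50 points, and 39.1% at GD5.5xVAS and 31.5% in NP P4 uterus. At equal covered length the Cyp2u1 difference was 30.2 points. In NP P4 uterus the subfamily means were lower than at GD0.5 for Cyp2a (29.5% against 47.1%), Cyp4a (17.8% against 34.1%) and Cyp2c (11.6% against 23.1%). This was not particular to NP P4, since GD5.5 IIS was also lower than GD0.5, with 31.7% for Cyp2a, 22.25% for Cyp4a and 16.2% for Cyp2c. At GD5.5xVAS Cyp4a (26.5%) and Cyp2c (17.2%) were lower than at GD0.5 and Cyp2a (48.9%) was higher. The Cyp2a mean is over 4 genes, Cyp2a12 among them. Cyp2c55 had 22.8% at GD5.5 IIS, 9.40% at GD5.5xVAS, 4.74% in NP P4 uterus and 44.5% at GD0.5. Cyp4f averaged 56.03 to 59.3% over the 4 lists. Each of these is a single list with no replicate, and none was tested.

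Genes that serve or regulate P450 enzymes were covered in other proportions. Of 7 redox partners, which pass electrons to P450 enzymes, 4 lay at 0 in all 12 Kdm6b lists, and 1 could be fitted and did not pass the test. That was Fdxr, the mitochondrial ferredoxin reductase, with 30.7% in cKO lists and 29.9% in control lists, while Por, the reductase of the microsomal enzymes, averaged 5.45% in cKO lists and 2.39% in control lists. Against 8.68% of all fitted genes that rose, 1 rise among 8 or 6 genes is near the background and is given as a value of that gene alone. Of 14 regulators 8 were fitted and 1 rose, namely Rarb, a retinoic acid receptor, with 55.1% in cKO lists and 46.4% in control lists (8.70 points, adjusted p = 0.0142, limma). Hnf4a, a liver transcription factor, averaged 74.1% in cKO lists and 70.5% in control lists and Nr1i2, the pregnane X receptor that drives Cyp3a genes, 53.6% and 39.2%, and neither passed the test. Nr0b2, a repressor of bile acid synthesis, was at 100% in all 12. Of 9 retinoid handling genes 6 were fitted and 1 rose, Aldh1a3, a retinaldehyde dehydrogenase, with 82.5% in cKO lists and 70.7% in control lists (11.8 points, adjusted p = 0.021, limma).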

How the data were processed

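H3K27me3 CUT&RUN was analysed from 16 peak lists, each pooling 3 of 48 samples, and the other 32 of the 80 samples were not analysed here. Per the submitters' processing notes, the authors used STAR 2.7.5c, samtools 1.10, Picard, bedtools 2.29.1 and bedGraphToBigWig 2.8 with mm10 and called broad peaks with macs2 2.2.7.1. In the lists as deposited each peak has a fold over background, a −log10 q value and a −log10 p value that served here only as a ranking score. No read totals are in the lists, so depth is unknown, and neither intervals nor floors could be given. The peak names of the Pgr-Cre pair of GD14.5 IS, 2 lists, carry a version mark that those of the other 10 Kdm6b lists lack, and 1 input-titled library of that stage carries an antibody label and was placed with the inputs.

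Overlapping peaks were merged, and coverage was computed for 21631 RefSeq protein-coding genes (GRCm38.p6, the assembly of mm10) with python 3.11.15, numpy 2.4.6 and pandas 2.3.3. The 6 cKO minus control differences were fitted with limma 3.58.1 in R 4.3.3 for genes of at least 5% mean coverage, with Benjamini-Hochberg adjustment over the 9844 genes fitted, after the fit had been tested on simulated data. Genes with no spread between lists could not be fitted. The smallest gap between peaks was 405 bp in the Kdm6b lists and 605 bp in the B6CBAF1/J lists, so the sets were kept apart. Promoter windows were aligned with biopython 1.88.

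Alternatives were equal covered length (each list cut to 80% of the shortest, strongest p first), peaks of −log10 q of at least 2 or fold of at least 3, flanks of 5 kb, start windows, other filters and priors, an unpaired fit, omission of each pair in turn, and centring of each pair on the median of the fitted genes. The members and lists were chosen with earlier results of these data known. Named genes are those past the test, the most covered member of each larger subfamily, up to 3 genes each way past 50 points in a single comparison, and a list of genes with known roles. Cyp2c23, Cyp2c29, Cyp2w1, Cyp4f13, Cyp3a59, the near-identical pairs and the CpG-rich genes were named after their values were seen.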

Additional observations from a re-analysis of the deposited data

Results flagged for a closer look

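Of 20 differences over the 6 pairs that were looked at for a pair apart from the others, 1 stood out, and chance alone gives about 1 in 20. It was Cyp2c55, whose difference was −20.4 points in the Pdgfra-Cre GD14.5 IS pair and between −34.9 and −30.0 points in the 5 Pgr-Cre pairs. The gap between this pair and the nearest other took up 0.663 of the whole range. In that pair Cyp2c55 coverage was 33.2% in the cKO list and 53.6% in the control list. Without it the mean difference was −32.1 points and the gene still fell (limma).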

How the results depend on the processing

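The number of P450 genes that rose was 0 in place of 2 at equal covered length, with peaks of −log10 q of at least 2 and around the start, and 1 in the unpaired fit. The number that fell was 0 in place of 10 with peaks of −log10 q of at least 2, where 6 P450 genes could be fitted by limma (1 lower and 0 higher at an unadjusted p under 0.05), and 1 around the start. Leaving out each pair gave 4 to 15 falls and 2 rises. The mean difference over the 96 genes was −1.77 points with peaks of −log10 q of at least 2, 0 with peaks of a fold of at least 3, where no P450 gene could be fitted, and −7.37 to −5.09 points without each pair. No gene of Cyp2c, Cyp2j, Cyp3a or Cyp4a overlapped a peak of −log10 q of at least 2 in either group. Their subfamily difference of 0 with such peaks was thus fixed and is no measured lack of difference. With these peaks it was −5.75 for Cyp4f, where Cyp4f13 and Cyp4f14 alone overlapped one. Around the start the subfamily difference was −8.01 for Cyp3a. Such strong peaks covered 0.495 to 7.78 Mb of the genome in cKO lists and 5.24 to 33.7 Mb in control lists. Only the GD14.5 IIS pair had more in cKO, with 7.43 against 5.24 Mb. No value over all genes was computed with strong peaks, so those differences are not a result about P450 genes alone. These subfamily alternatives, and leaving out pairs from the subfamily and cluster means, were chosen after seeing the data. Cases past 50 points in single comparisons numbered 40 in place of 13 at equal covered length and 129 with 25 points. Of the 12 genes past the test, 6 kept their call at equal covered length and 5 lost it, while Cyp2j8 could not be fitted there. With flanks of 5 kb 11 kept it, without a filter on low coverage 10 and in the unpaired fit 10. None of those fitted changed sign in any of these. Subtracting the median difference of each pair gave 14 falls and 2 rises. For the centred and unpaired fits and those without a pair, the share of all genes called was not counted. Their numbers are thus not a result about P450 genes alone. The calls rest on weak, broad peaks of pooled lists and on 6 pairs, and the causes of these changes were not tested. The pairs in the fit match lists of 1 stage, site and Cre set. Between single replicates no paired analysis was possible because the lists pool them and carry no replicate numbers.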

Other observations

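Other drug and hormone metabolising genes that were not P450 genes were called in both directions, in shares near those of all genes. The 97 genes were taken mostly by the start of their symbols. They include Fmod, which shares the start Fmo but is not such an enzyme and did not pass the test (adjusted p = 0.644, limma). Of the 97 genes 65 were fitted with limma, and 8 rose and 6 fell, while 8.68% of all fitted genes rose and 8.44% fell. Of 9 Ugt1a genes, which encode glucuronosyltransferases, 4 rose and none fell, with a family mean of 32.6% in cKO lists and 28.1% in control lists. The 4 were Ugt1a10, Ugt1a9, Ugt1a8 and Ugt1a7c, all on chromosome 1, with near-equal differences of 7.61 to 8.42 points. Genes of 1 locus share peaks, so these 4 of the 8 rises are not separate results. Of 5 fitted Ugt2 genes 2 fell, and all 10 genes of that family averaged 13.7% in cKO lists and 21.2% in control lists. One of the 2, Ugt2a1, averaged 2.30% in cKO lists and 11.9% in control lists, so it entered the fit through its control lists. Of 10 fitted Sult genes, which encode sulfotransferases, 3 fell, among them Sult1e1, the oestrogen sulfotransferase, with 15.5% in cKO lists and 30.1% in control lists (adjusted p = 0.0497, limma). Sult1c1, another of the 3, averaged 4.26% in cKO lists and 19.3% in control lists and entered the fit in the same way. Ugt2b5, Ugt2a1, Sult1d1 and Sult1e1, among the 6 falls, all lie on chromosome 5, so they may not be separate results either. Of 19 carboxylesterase genes 1 rose and 1 fell.

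Large tandem families elsewhere were set beside the P450 genes without a test between families. Of 548 fitted olfactory receptor genes 125 fell and 6 rose, while 6.7% of all fitted autosomal genes fell and 9.45% rose. All 1104 genes of the family averaged 21.1% in cKO lists and 29.8% in control lists, a mean difference of −8.76 points. Of 21 fitted Serpina genes, serine protease inhibitors made largely in liver, 3 rose and none fell, too few to be set apart from those shares.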
